A study of Mus musculus with 8 samples.

Results

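The genes described here carry out antigen presentation by major histocompatibility complex (MHC) class II, measured in early wound scars of mice whose skin regenerates hair follicles to a low or a high degree. The set named 9 genes (H2-Aa, H2-Ab1, H2-Eb1, H2-DMa, H2-DMb1, H2-Oa, H2-Ob, Cd74 and Ciita) by their role, without a rule on measured values, though earlier results of these arrays were known when it was drawn up. An array row, or transcript cluster, gathers the probes of a transcribed locus, and a gene was taken where the platform annotation gave a row this gene alone. That held for 6 of the 9 genes (H2-Aa, H2-Ab1, H2-DMa, H2-Oa, H2-Ob and Cd74), with 1 row each, out of 20259 genes and 115830 rows in all. The remaining 3 (H2-Eb1, H2-DMb1 and Ciita) appear only in rows shared with another symbol, and those rows are given separately. Whole-skin biopsies of scars were measured on Affymetrix Exon arrays, 4 mice of a strain labelled Low regeneration and 4 of a strain labelled High regeneration. The sources used here do not give the strain names, the H2 haplotypes, the age and sex of the mice or the day after wounding. Replicates are called low 1 to low 4 and high 1 to high 4.

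Class II molecules are pairs of an alpha and a beta chain that dendritic cells, macrophages and B cells use to show peptides of engulfed proteins to CD4 T cells. The invariant chain Cd74 fills the peptide groove of new molecules and leads them to endosomes, where proteases trim it and the H2-DM molecule exchanges its last fragment for a peptide. The H2-O molecule, found mainly in B cells and some dendritic cells, holds H2-DM back. Transcription rests on the coactivator Ciita, which interferon-gamma can induce in many cell types, and on a conserved promoter module of X and Y boxes bound by the RFX and NF-Y complexes.

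The promoters of H2-Aa, H2-Ob and H2-Oa are shown because the first encodes a chain of the peptide-presenting molecule and the other two encode the chains of H2-O, whose values differed most between the groups. They are RefSeq sequences of GRCm38.p6, from 250 bases before to 50 after the annotated start, in the direction of transcription and from a reference strain, so they need not match the mice measured. Capitals mark matches on either strand to GATTGG, the core of the Y box, to GCAAC, the core of the X box, or to TGACGTCA, the cyclic AMP response element found at the adjoining X2 position. H2-Aa lies on the minus strand at chr17:34287774-34288073, and H2-Ob and H2-Oa on the plus strand at chr17:34238655-34238954 and chr17:34092129-34092428.
H2-Aa: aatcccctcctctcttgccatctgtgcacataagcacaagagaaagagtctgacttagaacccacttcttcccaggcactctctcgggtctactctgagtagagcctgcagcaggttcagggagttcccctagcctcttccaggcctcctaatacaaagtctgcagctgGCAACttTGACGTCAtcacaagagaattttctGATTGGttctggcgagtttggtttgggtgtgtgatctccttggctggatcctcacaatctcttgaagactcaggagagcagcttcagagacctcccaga
H2-Ob: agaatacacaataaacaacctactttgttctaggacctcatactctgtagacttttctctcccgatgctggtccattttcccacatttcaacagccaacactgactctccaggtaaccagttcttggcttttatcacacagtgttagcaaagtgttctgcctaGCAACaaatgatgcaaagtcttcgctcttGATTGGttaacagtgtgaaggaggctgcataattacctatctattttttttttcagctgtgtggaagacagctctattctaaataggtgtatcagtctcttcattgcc
H2-Oa: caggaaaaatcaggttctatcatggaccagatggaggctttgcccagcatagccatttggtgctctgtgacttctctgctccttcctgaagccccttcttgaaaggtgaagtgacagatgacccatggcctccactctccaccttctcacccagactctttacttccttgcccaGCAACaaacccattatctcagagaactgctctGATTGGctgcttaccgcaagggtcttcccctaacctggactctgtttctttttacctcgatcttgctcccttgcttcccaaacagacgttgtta

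The Y box letters began 49 bases before the start in H2-Aa, 58 in H2-Ob and 44 in H2-Oa. The X box letters began 81, 87 and 76 bases before the start in the same order, and H2-Aa held the X2 letters 74 bases before it. Promoters of H2-Eb1, H2-DMb1 and H2-DMa were searched too. H2-Ab1 and Ciita had no sequence among the promoters used, and that of Cd74 was left out of the search. H2-Eb1 held Y box letters at 60 and 35 bases and X box letters at 91. H2-DMb1 held Y box letters at 62 bases and no X box letters. H2-DMa held X box letters alone, on the opposite strand 7 bases before an annotated start, and Y box letters alone 199 bases before a further start. Of all 32851 promoters of this length in the table, 16.1% held the Y box letters, 35.2% the X box letters and 1.79% the X2 letters. The 3 letter strings do not overlap each other in these windows, and a match is only a description of the letters. The letters were chosen after the promoters had been read.

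High- and low-regeneration scars did not differ detectably in the genes of a peptide-presenting molecule (H2-Aa and H2-Ab1), the invariant chain (Cd74) or an H2-DM chain (H2-DMa). Cd74, H2-Aa, H2-Ab1 and H2-DMa differed by 0.024 to 0.15 on the log2 scale with overlapping groups. H2-Oa, a chain of the H2-DM inhibitor, was 0.32 higher (1.25-fold) with groups that did not overlap, yet it just missed the threshold (adjusted p = 0.0525). Of the 6 genes 0 passed an adjusted p of 0.05 in limma, which called 4.32% of the 20259 genes (1.86% higher and 2.47% lower in high regeneration), and 1 (H2-Oa) had an unadjusted p under 0.05, as 21.8% of all genes did. All 6 estimates were positive, as were 57.2% over all genes. The median change was 0.11, against 0.029 over all genes.

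Some arrays stood apart within a group. Low 3 and low 4 were rich in muscle transcripts, with skeletal muscle list means of 9.70 and 10.42 on the log2 scale, where the remaining 6 arrays spanned 6.91 to 7.11. The Y-linked gene Eif2s3y was at 7.57 to 7.70 in low 2, low 4 and high 4 and at 4.08 to 4.76 in the other 5. Xist, which the inactive X chromosome of females makes, had levels of 9.60, 10.05 and 6.11 in these 3 arrays, given in the same order, and of 12.74 to 12.93 elsewhere. Low 2 and low 4 thus carried signal of both genes, and whether each of these arrays holds RNA of a single animal was not tested. Skin markers were high throughout, with keratinocyte list means of 11.66 to 11.85 and fibroblast list means of 10.66 to 10.92. The means over the 8 arrays of the 6 class II genes lay above 6.89, the 95th percentile of 862 olfactory receptor genes taken as a guide to background, since no detection calls were used. In single arrays H2-Ob was below that level once, at 6.84 in low 4. In whole skin, fewer cells of a type and less RNA per cell cannot be told apart. H2 genes differ in sequence between mouse haplotypes, so a strain difference in probe binding and a difference in transcript level cannot be told apart here.

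The invariant chain Cd74 had log2 levels of 10.91, 10.73, 10.34 and 10.40 in low 1 to low 4 and 10.67, 10.84, 10.60 and 10.56 in high 1 to high 4. Low 1 was the highest of all arrays and low 3 and low 4 the lowest, and the high arrays fell between them. Cd74 averaged 10.59 ± 0.27 (SD, n = 4) in the low group and 10.67 ± 0.12 in the high group. The difference of 0.078 ± 0.13 (SE) had a 95% interval of -0.21 to 0.37 (limma, adjusted p = 0.743). Without the muscle-rich low 3 and low 4 the difference was -0.15 (-0.38 to 0.088), of the opposite sign and still short of the threshold.

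H2-Aa and H2-Ab1 encode the alpha and beta chains of the I-A molecule, the classical class II molecule that all common mouse strains have. H2-Aa was at 9.17, 9.26, 9.07 and 9.08 in low 1 to low 4 and at 9.20, 9.49, 9.13 and 9.08 in high 1 to high 4. High 2 stood highest, and the other 3 high arrays lay within the range of the low group. H2-Aa differed by 0.079 ± 0.095 (SE; interval -0.14 to 0.29, limma adjusted p = 0.646), and by -0.0081 without high 2.

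H2-Ab1 was at 9.97, 9.93, 9.69 and 9.64 in low 1 to low 4 and at 9.87, 10.20, 10.02 and 9.73 in high 1 to high 4. Again high 2 was the highest array and low 3 and low 4 the lowest, with overlapping groups. The difference was 0.15 ± 0.12 (SE; interval -0.11 to 0.41, limma adjusted p = 0.469). It was 0.0059 without low 3 and low 4 (interval -0.29 to 0.30). H2-Aa differed by 0.0070 (-0.27 to 0.29) in the same comparison.

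The I-E molecule is the other classical class II molecule of the mouse, and some strains do not make it. The row shared by H2-Eb1, its beta chain, and H2-Eb2 was at 8.80, 8.66, 8.59 and 8.65 in low 1 to low 4 and at 8.69, 8.84, 8.75 and 8.66 in high 1 to high 4. The groups overlapped, and which of the genes gave the signal cannot be told from this row. It differed by 0.063 (interval -0.16 to 0.28; adjusted p = 0.83 in limma over all rows, where 0.338% of rows were called). H2-Ea, the alpha chain of I-E and a pseudogene in the reference, is not among the 9 genes. Its row lay at 5.26 ± 0.17 (SD, n = 4) in the low group and 5.36 ± 0.13 in the high group, below the olfactory receptor percentile given above each time. The groups overlapped (difference 0.11, limma adjusted p = 0.542).

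**Figure D1:**
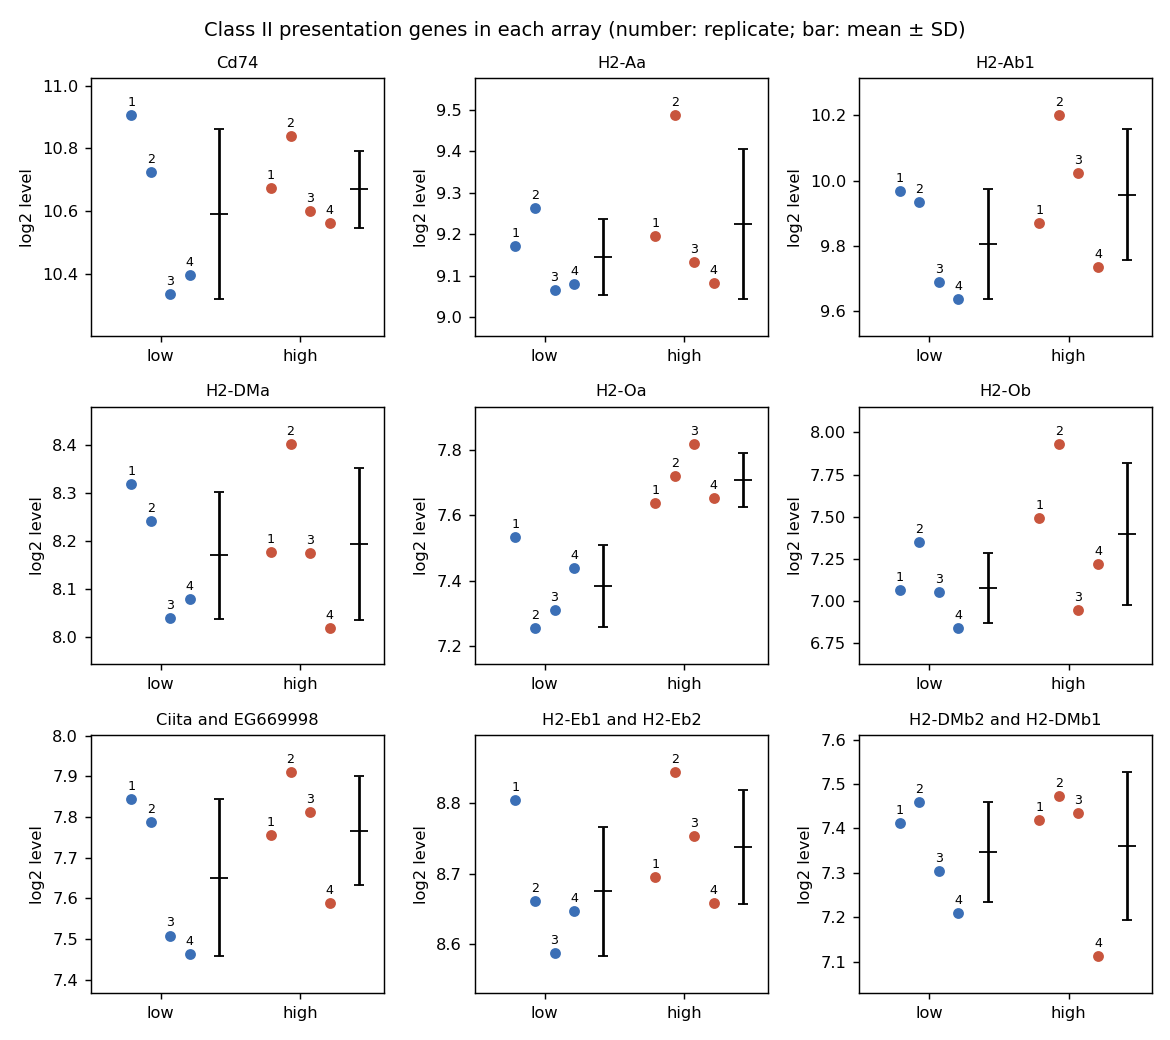
Log2 level of the 6 class II genes with a row of their own and of the 3 shared rows in each array (points, with the replicate number), with the group mean ± SD (n = 4) beside them. Each panel has its own log2 axis that does not start at 0; the low and high points overlap in every panel other than that of H2-Oa, where all high points (7.64 to 7.82) lie above all low points (7.26 to 7.53).

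H2-DMa is the alpha chain of H2-DM, the peptide exchange factor. It was at 8.32, 8.24, 8.04 and 8.08 in low 1 to low 4 and at 8.18, 8.40, 8.17 and 8.02 in high 1 to high 4. High 2 was the highest array and high 4 the lowest, so that the high group spanned the low one. The difference was 0.024 ± 0.097 (SE), with an interval of -0.19 to 0.24 (limma adjusted p = 0.904). This interval holds changes from 0.874-fold to 1.18-fold. The sign of H2-DMa depended on the setting, at -0.041 after median centring and -0.087 without low 3 and low 4.

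The row shared by H2-DMb2 and H2-DMb1, the beta chains of H2-DM, was at 7.41, 7.46, 7.31 and 7.21 in low 1 to low 4 and at 7.42, 7.47, 7.44 and 7.11 in high 1 to high 4. High 4 was the lowest array and the other 3 high arrays lay close together. The row differed by 0.013 (interval -0.25 to 0.28; limma over all rows, adjusted p = 0.974), and by -0.010 to -0.051 after quantile normalization, cyclic loess or median centring.

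H2-Oa and H2-Ob form H2-O, which restrains H2-DM. H2-Oa was at 7.53, 7.26, 7.31 and 7.44 in low 1 to low 4 and at 7.64, 7.72, 7.82 and 7.65 in high 1 to high 4. Every high array exceeded every low array. That is so for 1 of the 6 genes, while the groups did not overlap in 14.5% of all genes, and in 7.19% with the high group above. H2-Oa had means of 7.38 ± 0.12 (SD, n = 4) and 7.71 ± 0.083 and a difference of 0.32 ± 0.078 (SE; interval 0.15 to 0.50), that is 1.25-fold (1.11 to 1.41). The unadjusted p was 0.00237 and the adjusted p = 0.0525 in limma over all genes. In the fit over 25539 rows with a single symbol, of which 3.52% were called, the adjusted p was 0.0635. The two-sided exact permutation test over the arrays gave p = 0.0286, the smallest that 4 against 4 arrays allow.

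The H2-Oa difference was 0.26 to 0.37 over all alternatives, with an adjusted p from 0.0298 to 0.393. It passed with array weights, a variance trend, a filter on low genes at either level, or without low 1 (adjusted p = 0.0314), and missed the threshold without any other array. Without low 3 and low 4 it was 0.31 (0.082 to 0.54, limma adjusted p = 0.193). Without the Eif2s3y-positive low 2, low 4 and high 4 it was 0.30 (limma adjusted p = 0.393), a setting in which 15 of all genes were called.

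H2-Ob was at 7.06, 7.35, 7.05 and 6.84 in low 1 to low 4 and at 7.49, 7.93, 6.95 and 7.22 in high 1 to high 4. High 2 was far above the rest, while high 3 and high 4 lay within the range of the low group. The estimate for H2-Ob, 0.32 ± 0.20 (SE; interval -0.12 to 0.76, limma adjusted p = 0.363), was as large as that of H2-Oa with an SD within the high group of 0.42 against 0.083. Without high 2 the H2-Ob difference was 0.14.

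Within an array, the log2 difference between H2-Oa and H2-DMa, the inhibitor and its target, was 0.30 larger in high regeneration, with overlapping groups (two-sided exact permutation p = 0.0571). H2-Oa against the mean of the other 5 genes was 0.19 larger (exact permutation p = 0.286). The change of H2-Oa was thus not told apart from that of the other class II genes. H2-Oa against H2-Ob, the other chain of H2-O, differed by 0.0019 with overlapping groups. H2-Ob against H2-DMa was 0.30 larger in high regeneration (exact permutation p = 0.143). H2-Aa and Cd74, each against H2-Ab1, differed by -0.071 and -0.072 (exact permutation p = 0.371 and 0.486). The contrasts were chosen after the values of H2-Oa were seen.

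B cells are a main site of H2-O. The B cell list had 1 of 9 measured genes higher and 0 lower (1.86% and 2.47% of all genes), with list means of 5.92 to 6.09 in low and 6.10 to 6.24 in high regeneration. The higher gene was Cd22, an inhibitory coreceptor of B cells, at 0.40 ± 0.078 (SE, limma adjusted p = 0.0238). That call was lost without low 2, low 3 or any single high array (adjusted p up to 0.0762). The markers Ms4a1 (4.77 and 4.83 in low and high) and Cd79a (4.70 and 4.83) lay below the olfactory receptor percentile in both groups. Cd79b lay above it, at 7.82 and 8.07, with overlapping groups (difference 0.24, limma adjusted p = 0.307). Of the 9 estimates 8 were positive. Every high array exceeded every low array in 2 of the 9 and the reverse held in 0 (7.19% and 7.29% of all genes). The negative estimate was that of Bank1, a B cell scaffold protein, at -0.20 (limma adjusted p = 0.189) with overlapping groups. Bank1 too lay below the olfactory receptor percentile (5.68 and 5.48 in low and high). So did Pax5 (6.14 and 6.36), Cr2 (4.71 and 4.79), Fcer2a (6.43 and 6.57) and the list mean in every array. Pax5 and Cd22 were the 2 genes whose high arrays all exceeded the low ones. The list means came close between the groups, at 6.091 in low 4 and 6.100 in high 4, without centring on array medians. The part of B cells in the H2-Oa values was not tested.

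Ciita is the coactivator that sets class II transcription. Its row is shared in the annotation with EG669998, which the reference lists as an older name of Ciita. The row was at 7.85, 7.79, 7.51 and 7.46 in low 1 to low 4 and at 7.76, 7.91, 7.81 and 7.59 in high 1 to high 4. As for Cd74, low 3 and low 4 were the lowest arrays and the groups overlapped. The difference was 0.12 (interval -0.17 to 0.41; limma over all rows, adjusted p = 0.748), and -0.050 without low 3 and low 4.

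The class II genes varied together from array to array. On average over the 6 genes, each centred on its own mean, high 2 was 0.32 above the mean of the arrays, and low 3 and low 4 were 0.20 below it. All 6 genes were below their own mean in low 3 and low 4, and 0 of 6 in high 2. Pearson r over the 8 arrays was 0.70 to 0.90 among Cd74, H2-Aa, H2-Ab1 and H2-DMa, and Spearman rho 0.76 to 0.90. H2-Ob followed these genes less closely, at r of 0.57 to 0.89 and rho of 0.48 to 0.81. H2-Oa followed this pattern least, at r of 0.23 to 0.51 with the other 5 genes. These correlations describe 8 arrays that share the group difference and the muscle-rich pair, and no test was made of them.

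The genes with the most similar pattern over the 8 arrays were Rassf7 (r = 0.974 with the mean of the class II genes, rho = 0.929), Plcxd1 (0.972 and 0.929), Med9 (0.956 and 0.810), Vstm2b (0.948 and 0.905) and Map3k8 (0.945 and 0.952). Map3k8 is a kinase of inflammatory signalling, and Med9 a subunit of the Mediator complex. None of the 5 passed the comparison of the groups in limma, and their differences were 0.071 to 0.23. They were taken as the highest of all genes, and Cd74 alone as the pattern gave 5 others.

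Among other genes of the class II pathway a few were called. Of 32 measured genes 3 were higher in high regeneration and 0 lower, and the median change was 0.093, where that of the 6 class II genes was 0.11. The 3 were Irf8, Cd4 and Ctss, while 1.86% of all genes were called higher and 2.47% lower. Ctss, the protease that trims the invariant chain, was at 9.73, 9.74, 9.94 and 10.10 in low 1 to low 4 and at 10.26, 10.22, 10.29 and 10.23 in high 1 to high 4. The high arrays lay close together above all low arrays. Ctss rose by 0.37 ± 0.087 (SE, limma adjusted p = 0.0479). The Ctss call held without low 4 (limma adjusted p = 0.0290) and was lost without any other single array (adjusted p up to 0.131). Without low 3 and low 4 Ctss was 0.51 higher.

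Irf8, a transcription factor of dendritic cells and other myeloid cells, was at 7.88 to 8.12 in low and 8.39 to 8.52 in high regeneration. Irf8 rose by 0.49 ± 0.072 (limma adjusted p = 0.0109) and passed without each array in turn. Cd4, the coreceptor with which T cells bind class II, rose by 0.59 ± 0.12 (limma adjusted p = 0.0264). The Cd4 call was lost without low 2, low 3, low 4, high 1, high 2 or high 4 (adjusted p up to 0.0714). Cd4 is also made by some dendritic cells, and which cells gave this signal was not tested.

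Further genes of peptide processing and of the Ciita partners did not pass. Lgmn, an endosomal protease, was 0.23 ± 0.080 (SE) higher (limma adjusted p = 0.143), with groups that did not overlap. Ctse, another endosomal protease, had the largest difference of the list, -0.69 ± 0.21 (SE, limma adjusted p = 0.106), with every low array above every high array. Ifi30, an endosomal thiol reductase, differed by 0.094 (adjusted p = 0.604) and by -0.073 without low 3 and low 4. Of the 3 RFX subunits, which bind the X box, Rfxank was at 0.092, Rfxap at -0.0021 and Rfx5 at -0.16, with adjusted p of 0.370 to 0.988.

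**Figure D2:**
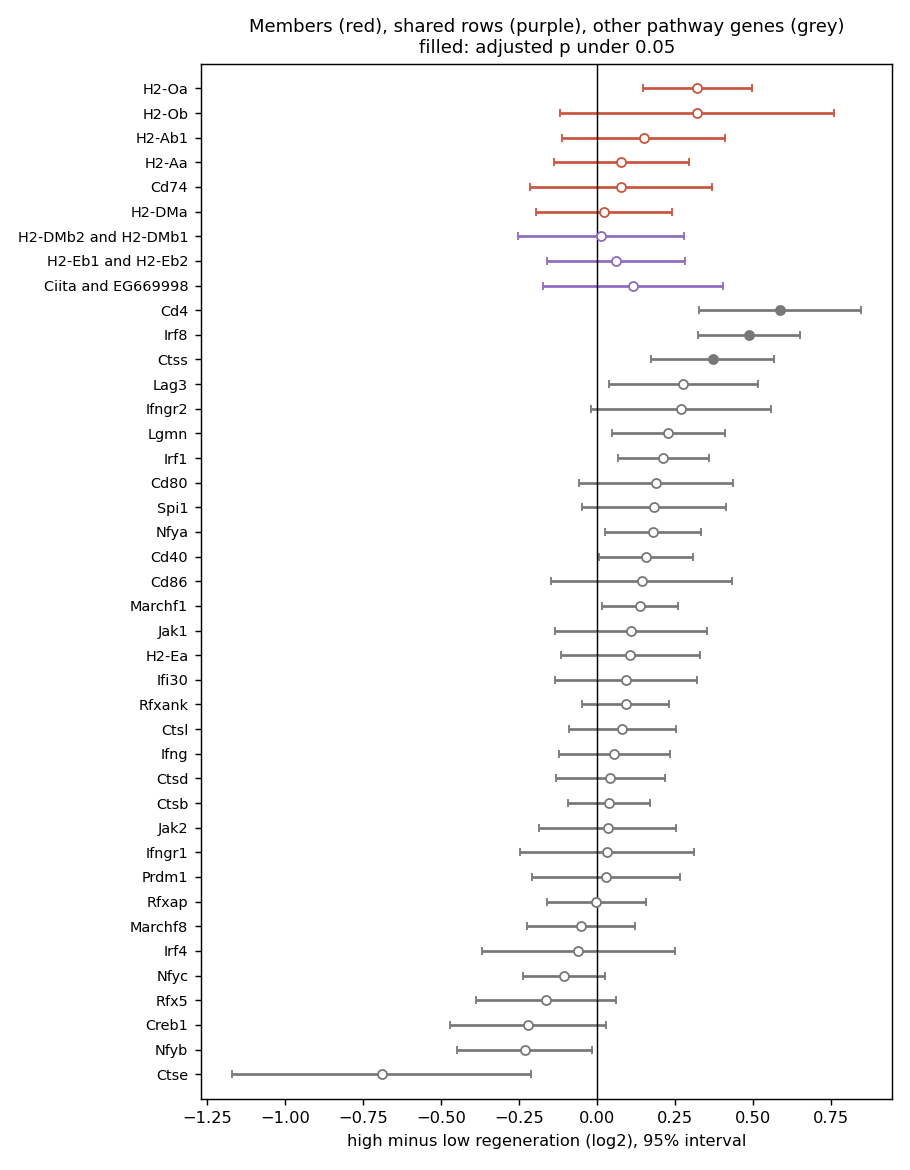
High minus low regeneration on the log2 scale with 95% limma intervals for the 6 class II genes (red), the 3 shared rows (purple) and the 32 other pathway genes measured (grey). Filled points have an adjusted p under 0.05; these are Cd4, Irf8 and Ctss, and the interval of H2-Oa is the single one among the class II genes that leaves out 0.

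Interferon-gamma is the main inducer of Ciita, and of 16 measured genes known to respond to it 4 rose and 0 fell, where 1.86% of all genes rose and 2.47% fell. The median change of the 16 was 0.35. List means were 7.62 to 7.83 in low and 7.97 to 8.33 in high regeneration. The 4 were the GTPases Irgm1 (0.89 ± 0.096, SE), Gbp7 (0.83 ± 0.095) and Gbp3 (0.73 ± 0.14) and the chemokine Cxcl11 (1.07 ± 0.17), with limma adjusted p of 0.00364 to 0.0254. Type I interferon is known to induce these genes too. The Gbp3 call was lost without low 2, low 3, low 4 or high 4 (adjusted p up to 0.0719). Of the 16 estimates 15 were positive. Every high array exceeded every low array in 8 of the 16 and the reverse held in 0 (7.19% and 7.29% of all genes). The other 12 did not pass, among them the chemokines Cxcl9 (0.68, limma adjusted p = 0.313) and Cxcl10 (0.44, 0.279) and the enzyme Ido1 (-0.055, 0.779), each with overlapping groups. Ido1 was the negative estimate of the list. Ifng itself differed by 0.057, with overlapping groups (limma adjusted p = 0.693).

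Markers of class II bearing cells were called in few cases, and the counts of these lists stand against 1.86% of all genes called higher and 2.47% lower. The dendritic and Langerhans cell list had 1 of 13 genes higher and 0 lower, with list means of 7.67 to 7.74 in low and 7.83 to 8.03 in high regeneration. The higher gene was Siglech, a marker of plasmacytoid dendritic cells in mice, at 0.79 ± 0.12 (SE, limma adjusted p = 0.0112), and it passed without each array in turn. Cd207, the defining marker of Langerhans cells, averaged 7.37 ± 0.25 (SD, n = 4) in the low group and 7.28 ± 0.12 in the high group, with overlapping groups. Of the 13 estimates 11 were positive, so Cd207 and Epcam went against most of their list. Every high array exceeded every low array in 4 of the 13 and the reverse held in 1 (7.19% and 7.29% of all genes). The reverse case was Epcam, at -0.26 (limma adjusted p = 0.0908). The list means were not centred on array medians, which deviated from their mean by -0.11 in low 3 and 0.097 in high 3.

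For the next lists too, the shares over all genes were 1.86% higher and 2.47% lower. The macrophage and monocyte list had 1 of 15 higher and 0 lower, the higher one being the antibody receptor Fcgr1, at 0.67 ± 0.088 (limma adjusted p = 0.00729). Of the 15 estimates of the macrophage and monocyte list 9 were positive. The largest differences of this list were negative and did not pass. The scavenger receptor Cd163 was at -1.0 ± 0.34 (SE, limma adjusted p = 0.134) with overlapping groups, and at -0.31 without low 3 and low 4. The mannose receptor Mrc1 was at -0.68 ± 0.19 (limma adjusted p = 0.0819), with every low array above every high array. The list means overlapped, at 8.60 to 9.02 and 8.70 to 8.94. The list of all leukocytes had 1 of 8 higher and 0 lower. The higher gene was Laptm5, a lysosomal membrane protein of blood cells, at 0.31 ± 0.072 (limma adjusted p = 0.0465). The Laptm5 call held without low 1 and was lost without any other array (adjusted p up to 0.122). The T cell list had Cd4 higher and Thy1 lower (-0.58 ± 0.094, limma adjusted p = 0.0133) of 12. Thy1, which fibroblasts also make, was the 1 lower gene of 7 in the fibroblast list. The part of these cells in the class II values was not tested.

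**Figure D3:**
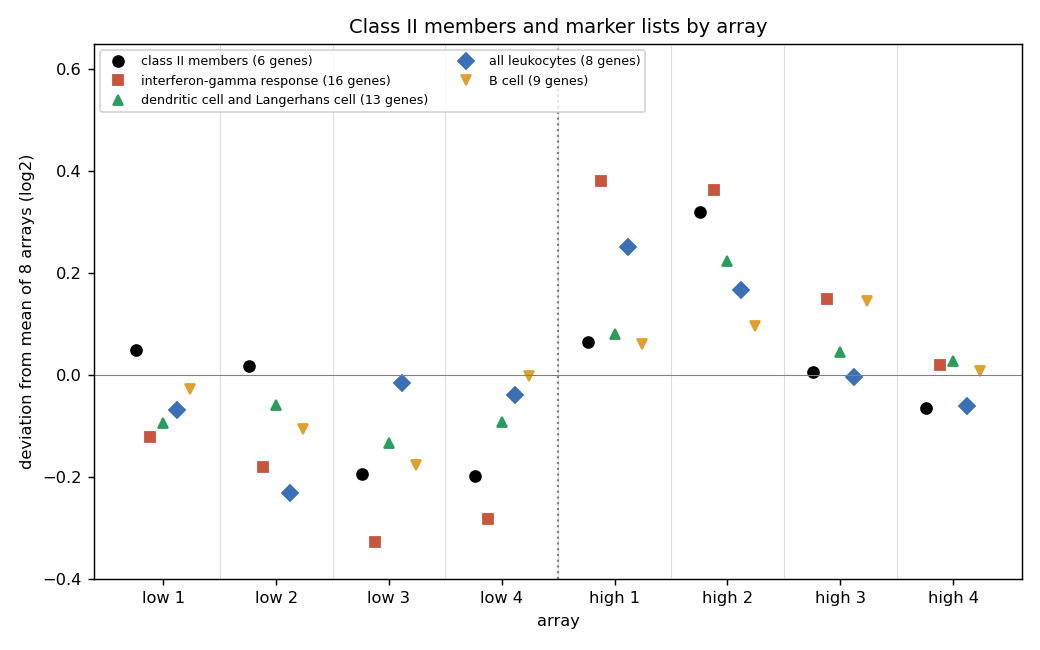
Mean log2 level of the 6 class II genes and of 4 marker lists in each array, as the deviation from the mean of the 8 arrays. The interferon-gamma, dendritic cell and B cell lists lie higher in every high array than in any low array, without centring on array medians. Those medians deviate from their mean by -0.11 in low 3 to 0.097 in high 3. The B cell list comes closest between the groups, with means of 6.091 in low 4 and 6.100 in high 4. Whether these separations hold after centring was not tested. The class II genes overlap between the groups, with high 2 at 0.32 and low 3 and low 4 at -0.20.

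All class II genes here other than Cd74 and Ciita lie in the H2 complex on chromosome 17. In the reference order H2-Oa comes first, followed by Brd2, H2-DMa, H2-DMb2, H2-DMb1, Psmb9, Tap1, Psmb8, Tap2, H2-Ob, H2-Ab1, H2-Aa, H2-Eb1, H2-Eb2 and H2-Ea. Of 50 measured neighbours within 500 kb on either side of the class II genes 0 were called in limma, against 4.32% of all genes. An unadjusted p under 0.05 was found in 11 of the 50, close to the share of 21.8% over all genes. Groups did not overlap in 5 of the 50, with 3 higher and 2 lower in high regeneration (7.19% and 7.29% of all genes). The median change of the 50 was 0.069. Brd2, between H2-Oa and H2-DMa, differed by 0.0011. Tap1, Tap2, Psmb8 and Psmb9, the class I processing genes between H2-DMb1 and H2-Ob, were 0.23 to 0.30 higher, and 0 of these 4 passed (limma adjusted p of 0.103 to 0.231). Tapbp, a class I loading factor (0.40, adjusted p = 0.0551), and Tnxb, a matrix protein (-0.64, adjusted p = 0.0934), were chosen after their values were seen, as those with the largest differences among the 5.

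**Figure D4:**
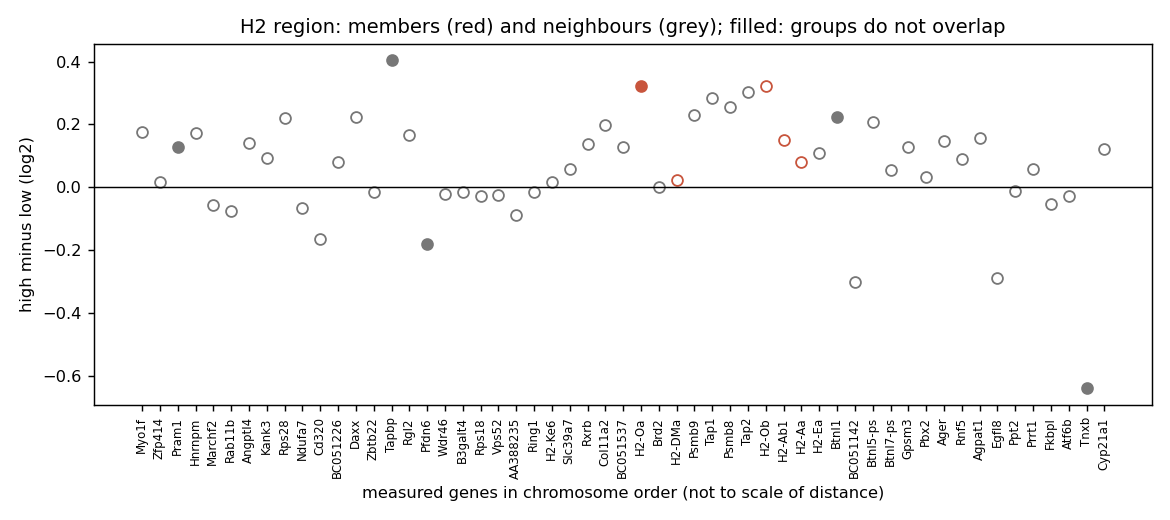
High minus low regeneration on the log2 scale for the measured genes of the H2 region in chromosome order, evenly spaced, with class II genes in red and neighbours in grey. Filled points are genes whose groups do not overlap; H2-Oa is the 1 filled class II gene, and values run from -0.64 (Tnxb) to 0.40 (Tapbp).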

How the data were processed

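The authors deposited a column of log2 values for each array, with a value per transcript cluster. The submitters' processing notes name Affymetrix Expression Console and PLIER; their settings and versions were not known here. That the scale is log2 was taken from the range of the values (2.10 to 14.92); array medians were 6.09 to 6.29, and no further normalization was applied. Arrays were counted as separate animals, since the series' text gives 4 mice per strain, and their number limits the precision.

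Rows were named through the platform annotation (25539 with 1 symbol, 2300 with several, 87991 with none listed). Rows of a gene were averaged, and 20259 genes were fitted with limma 3.58.1 in R 4.3.3 (lmFit, eBayes, two-sided) with Benjamini-Hochberg adjustment over all of them. Genes below an adjusted p of 0.05 were called. Shared rows were taken from the same fit over all 115830 rows. No filter was applied. The fit was tested on simulated data. The members, lists and alternatives were chosen with earlier results of these data known.

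Named are all members, 6 preset processing and regulator genes (Ctss, Lgmn, Ifi30, Rfx5, Rfxap, Rfxank), up to 4 called genes per list, up to 6 called neighbours (0 were called) and the 5 most alike genes, predicted gene models left out. Other genes given with values (H2-Ea, Ctse, Ifng, Cxcl9, Cxcl10, Ido1, Ms4a1, Cd79a, Cd79b, Bank1, Pax5, Cr2, Fcer2a, Cd207, Epcam, Mrc1, Cd163, Eif2s3y, Xist, Brd2, Tap1, Tap2, Psmb8, Psmb9, Tapbp and Tnxb) fall outside this rule and were chosen after their values were seen. Names, gene order and promoters come from RefSeq, GRCm38.p6.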

Additional observations from a re-analysis of the deposited data

Results flagged for a closer look

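Among 54 groups of 4 arrays examined for a single far array, 2 held one, and chance flags about 1 in 20 groups. In the row shared by H2-DMb2 and H2-DMb1, high 4 was at 7.11 and the other 3 high arrays were at 7.42 to 7.47. For Rfxap, a subunit of the RFX complex, low 2 was at 7.70 and the other 3 low arrays were at 7.89 to 7.92.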

How the results depend on the processing

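Of 137 alternative values of the 6 class II genes 129 were positive, and H2-Oa, H2-Ob and H2-Ab1 were positive in all of theirs. Calls among the 5 genes other than H2-Oa numbered 0 in all settings. H2-Oa was the 1 called gene (against 0) with array weights, both filters on low genes, a threshold of 0.1 and, at gene level, an eBayes trend, and 0 to 1 were called when leaving out each array. H2-Ob was left out by the filter at the median level. The replicate block gave H2-Oa an adjusted p of 0.178, and same-numbered arrays did not deviate together (r of -0.26 to 0.025). Over all genes, 239 were called with the block, 325 without low 3 and low 4, 15 without low 2, low 4 and high 4, 1792 at a threshold of 0.1, 132 at 0.01, and 292 to 1205 when leaving out each array, against 876. Over all genes of the lists, 6 were called with the block, 0 without low 2, low 4 and high 4, 26 at 0.1, 3 at 0.01, and 7 to 15 when leaving out each array, against 12. Signs turned without low 3 and low 4 for H2-DMa (-0.087), Cd74 (-0.15), Ifi30 (-0.073), Rfxap (0.055), the Ciita row (-0.050) and the H2-DMb row (-0.076). They turned after median centring for H2-DMa (-0.041), the H2-Eb row (-0.0014) and the H2-DMb row (-0.051), which was at -0.010 after quantile normalization and -0.023 after cyclic loess. Rfxap was 0.054 with array weights and Med9 -0.071 by its brightest row. Leaving out each array gave -0.0081 to 0.13 for H2-Aa, -0.046 to 0.082 for H2-DMa, -0.0064 to 0.18 for Cd74, -0.052 to 0.032 for Rfxap and -0.033 to 0.096 for the H2-DMb row. Of the 5 most alike genes, 0 remained with Cd74 alone as the pattern and 2 with correlations taken within groups. The causes were not tested.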
